A study of Homo sapiens with 6 samples.

Results

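The expression of 10 genes of prostaglandin synthesis and signalling was followed in U87 cells, a human glioblastoma cell line, after treatment with rutaecarpine. They were taken by gene symbol from a table of 60671 genes, where each of the 10 symbols matched 1 row. The matching used no measured value, but the 10 genes were chosen with earlier results of these data known. They were PLA2G4A, PTGS1, PTGS2, PTGES, PTGES2, PTGES3, PTGIS, HPGD, PTGER2 and PTGER4. Rutaecarpine is an indole alkaloid of the medicinal plant Evodia rutaecarpa. The rutaecarpine group (3 libraries) received 100 µM of the compound for 48 h in serum-free medium, and the control group (3 libraries) received the solvent alone, 0.1% DMSO, for the same time. RNA-seq expression was given as TPM, a level (transcript abundance) corrected for transcript length and scaled within each library. The series holds 1 cell line, 1 dose and 1 time point, and the labels do not say that the libraries of a group came from separate cultures, so that the p-values measure the spread between these libraries, which may be technical.

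Prostaglandins are short-lived lipid messengers made from arachidonic acid. A cytosolic phospholipase frees arachidonic acid from membranes, the cyclooxygenases turn it into prostaglandin H2, and terminal synthases convert that into prostaglandin E2, prostacyclin and others. Prostaglandin E2 acts on neighbouring cells through cell-surface receptors, of which EP2 and EP4 raise cyclic AMP, and cyclooxygenase-2 is found in many gliomas.

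In the rutaecarpine group the RNA of 2 genes at the first steps of this route was higher. PTGS2, the inducible cyclooxygenase, was 15.4-fold higher and PLA2G4A, the phospholipase, was 3.76-fold higher than in the control group. PTGES, the inducible prostaglandin E synthase, was 1.22-fold higher in a difference that did not pass the test. The constitutive enzymes PTGS1, PTGES2 and PTGES3 and the receptors PTGER2 and PTGER4 did not pass it either, and HPGD and PTGIS were too low to test. Of the 10 genes, 8 had 3 or more libraries at or above 1 TPM and were tested with limma among 14377 genes. Differentially expressed genes (DEGs) met 2 limits, an adjusted p no larger than 0.05 and a log2 fold change, on the log2(TPM + 1) scale, beyond 1 in either direction. Of the 8 genes tested, 2 were DEGs with higher expression and 0 with lower expression, where 3.51% of all tested genes were DEGs, 2.01% with higher and 1.50% with lower expression. At an adjusted p of at most 0.05 alone the counts were again 2 and 0, against 4.60% and 4.68% of all tested genes (9.29% in either direction), and at an unadjusted p under 0.05 they were 3 and 0, against 13.4% and 11.0%. Without control replicate 3 the counts at an adjusted p of at most 0.05 were 3 and 1, with PTGES added to those that were higher and PTGER4 lower, against 8.36% and 10.3% of the genes tested then. The groups did not overlap for 3 of the 8 genes with the rutaecarpine group higher and for 0 with it lower, against 19.3% and 14.0% of all tested genes (33.3% in either direction). The median log2 fold change was 0.02 over the 8 genes and 0.08 over all tested genes.

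**Figure D1:**
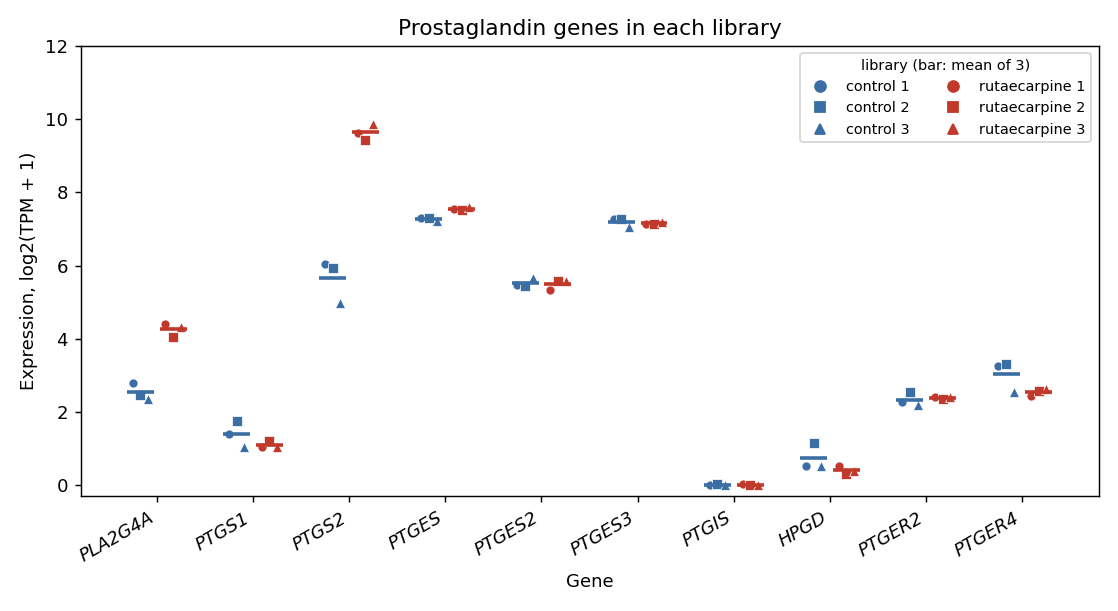
Expression as log2(TPM + 1) of the 10 prostaglandin genes on the horizontal axis, with blue symbols for the 3 control libraries, red symbols for the 3 rutaecarpine libraries and a bar for the mean of each group. The red symbols of PTGS2, PLA2G4A and PTGES lie above all blue symbols of the same gene, and those of the other 7 genes do not separate upwards.

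The libraries were checked against the treatment and the cell line. CYP1B1, a target gene of the aryl hydrocarbon receptor, stood at 84.67, 82.42 and 42.8 TPM in the control group and at 410.6, 335.45 and 422.88 TPM in the rutaecarpine group (log2 fold change 2.52, limma adjusted p = 0.00191). Control replicate 3 stood apart from the other libraries: 13758 of its genes reached 1 TPM against 14105 to 14475 elsewhere, and its median log2 level over the tested genes was 3.56 against 3.81 to 4.00. Where a call changed without it, that is given beside the result. The mesenchymal genes VIM, CD44, NES and FN1 ranged from 12.3 to 7968 TPM and summed to 12422 to 15132 TPM in the control group and 8595 to 9273 TPM in the rutaecarpine group, whereas the glial markers GFAP, OLIG2, SOX2 and S100B summed to only 5.12 to 6.74 TPM in the control group and 7.78 to 9.11 TPM in the rutaecarpine group. The leukocyte markers PTPRC, CD14, ITGAM and CD3E were at most 0.54 TPM each, the endothelial markers PECAM1 and CDH5 at most 1.33 TPM, the epithelial markers EPCAM and KRT8 at most 12.65 TPM, and HBB at 0. These are bulk samples, in which fewer cells that express a gene and less of its RNA per cell cannot be told apart.

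PTGS2 (ENSG00000073756, chr1:186671791-186680427, minus strand, GRCh38) encodes cyclooxygenase-2. It stood at 64.65, 60.72 and 30.59 TPM in the control group and at 785.31, 690.52 and 933.45 TPM in the rutaecarpine group. The groups were far apart, with control replicate 3 the lowest library. The means were 52.0 ± 18.6 and 803 ± 122 TPM (SD, n = 3 each), and the log2 fold change was 3.98 (95% interval 3.33 to 4.64, SE 0.28, limma adjusted p = 0.000515). This was number 6 from the top among the 14377 tested genes. Ordered by level among all 60671 genes, PTGS2 was number 2229, 2346 and 3830 in the 3 control libraries and number 172, 198 and 149 in the 3 rutaecarpine libraries. Without control replicate 3 the log2 fold change was 3.65, and PTGS2 was a DEG in 13 of 13 alternative analyses.

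PLA2G4A (ENSG00000116711, chr1:186828953-186988981, plus strand) encodes cytosolic phospholipase A2 alpha, which cuts arachidonic acid from membrane phospholipids. It stood at 5.93, 4.55 and 4.12 TPM in the control group and at 20.02, 15.62 and 19.2 TPM in the rutaecarpine group, so that every rutaecarpine library was above every control library. The means were 4.87 ± 0.95 and 18.3 ± 2.34 TPM (SD, n = 3 each), and the log2 fold change was 1.72 (95% interval 1.30 to 2.14, SE 0.18, limma adjusted p = 0.00195). This was number 92 from the top among all tested genes, and PLA2G4A was a DEG in 13 of 13 alternatives, at log2 fold changes from 1.63 to 1.90.

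The 2 genes that rose lie on the same chromosome, and their start sites are 148526 bp apart. Among the other annotated genes within 300 kb of PTGS2, TPR, a nuclear pore gene, and ODR4 did not pass the test (limma adjusted p = 0.998 and 0.657). PACERR, a long non-coding RNA that starts 195 bp from the PTGS2 start on the opposite strand, was looked at after its values were seen. It stood at 1.82, 0.25 and 0.78 TPM in the control group and at 3.74, 3.98 and 4.36 TPM in the rutaecarpine group. It entered the test through the rutaecarpine libraries, since only 1 control library reached 1 TPM, and its values are given as a description with no test. Whether reads were counted by strand is not given in the sources used here. The remaining genes of this window were at most 0.24 TPM.

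**Figure D2:**
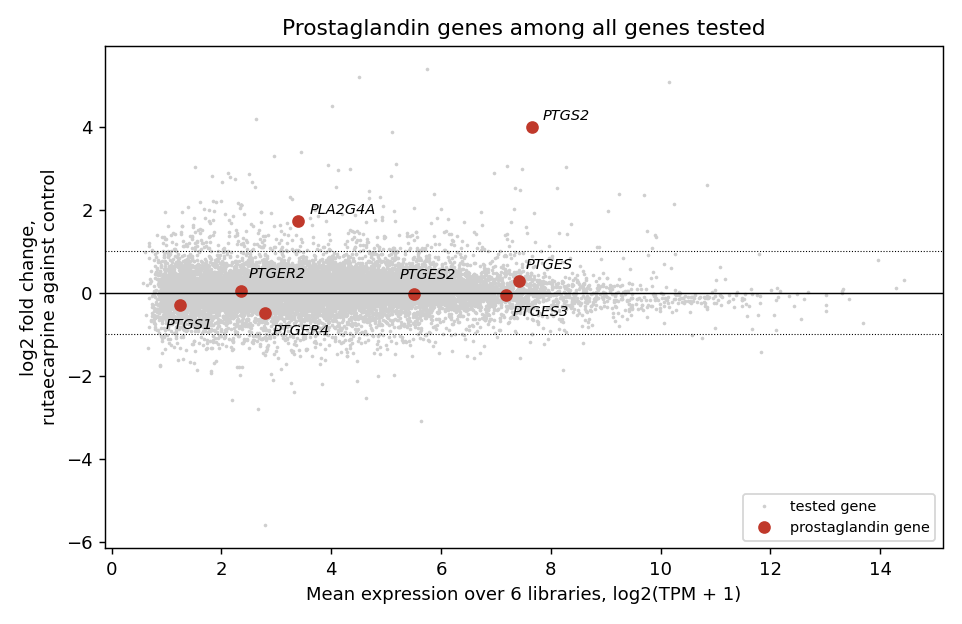
Log2 fold change of all 14377 tested genes against their mean log2(TPM + 1) over the 6 libraries, in grey, with the 8 prostaglandin genes in red and dotted lines at the DEG threshold of 1 in either direction. PTGS2 and PLA2G4A lie above a log2 fold change of 1. The other 6 lie between the dotted lines, from -0.49 for PTGER4 to 0.28 for PTGES.

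The 250 bases before the start of PTGS2, PLA2G4A and PTGES are shown because these are the genes whose rutaecarpine libraries all exceeded the control libraries. They were read from RefSeq on GRCh38.p14, which held a start for 9 of the 10 genes, and capitals mark the matches to the motifs searched.
PTGS2 promoter (chr1:186680424-186680673, minus strand): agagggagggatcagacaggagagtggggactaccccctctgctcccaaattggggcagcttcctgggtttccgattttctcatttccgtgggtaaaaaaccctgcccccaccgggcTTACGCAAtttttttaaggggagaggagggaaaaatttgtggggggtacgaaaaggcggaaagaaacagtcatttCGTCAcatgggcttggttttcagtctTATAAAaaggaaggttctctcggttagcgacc
PLA2G4A promoter (chr1:186828699-186828948, plus strand): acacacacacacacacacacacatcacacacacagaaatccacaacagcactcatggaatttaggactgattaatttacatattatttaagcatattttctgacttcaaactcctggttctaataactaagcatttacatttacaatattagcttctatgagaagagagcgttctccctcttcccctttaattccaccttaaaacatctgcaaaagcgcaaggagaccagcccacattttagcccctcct
PTGES promoter (chr9:129753043-129753292, minus strand): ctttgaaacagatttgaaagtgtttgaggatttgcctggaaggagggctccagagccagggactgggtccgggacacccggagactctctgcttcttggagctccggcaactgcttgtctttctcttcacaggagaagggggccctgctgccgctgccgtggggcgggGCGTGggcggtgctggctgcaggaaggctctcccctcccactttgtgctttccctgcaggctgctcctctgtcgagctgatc
In the PTGS2 window the C/EBP motif TTNCGCAA matched at 133 to 126 bases before the start, the short cyclic AMP response element CGTCA at 58 to 54 bases and the TATA box TATAAA at 32 to 27 bases. Each was searched on both strands except the TATA box, which was searched on the given strand. Of 35116 promoters of this length, 0.752% held the C/EBP motif, 21.2% the short cyclic AMP element and 6.8% the TATA box. The dioxin response element CACGCNA, which the aryl hydrocarbon receptor binds, was held by 4.52% of promoters and its core GCGTG, which overlaps it, by 32.2%, both strands counted. The PTGES window held the core at 82 to 78 bases and the PTGS2 and PLA2G4A windows held neither. Among the genes not shown, windows of PTGES2, PTGES3, HPGD, PTGER2 and PTGER4 also held the core, and a PTGES2 window held the full element. The NF-kappaB motif was searched on both strands as GGGRNNYYCC, where R is A or G, Y is C or T and N is any base. This pattern, held by 9.96% of promoters, matched in none of the 3 windows shown. It matched in windows of PTGES3, HPGD, PTGER2 and PTGER4. The PTGS2 window holds gggactaccc, which misses the pattern by a single letter, an A in place of Y. A match is a description of letters and not evidence of binding, and a missing match says only that these letters are not in the window.

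PTGS2 made up most of the cyclooxygenase RNA in every library. PTGS1 (ENSG00000095303, chr9:122370530-122395703, plus strand), the constitutive cyclooxygenase, stood at 1.62, 2.35 and 1.05 TPM in the control group and at 1.06, 1.3 and 1.07 TPM in the rutaecarpine group. The groups overlapped, and its log2 fold change was -0.29 (95% interval -0.81 to 0.23, limma adjusted p = 0.461), or -0.47 without control replicate 3 (limma adjusted p = 0.159). PTGS2 thus made up 97.6%, 96.3% and 96.7% of the summed TPM of both cyclooxygenases in the control group and 99.9%, 99.8% and 99.9% in the rutaecarpine group. The mean share was 96.8 ± 0.65% in the control group and 99.9 ± 0.04% in the rutaecarpine group (SD, n = 3 each), a difference of 3.02 percentage points, and the exact two-sided permutation test gave p = 0.1, the smallest value that 3 against 3 libraries allow.

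The prostaglandin E synthases were all well expressed, and none of the 3 passed the test. PTGES (ENSG00000148344, chr9:129738331-129753047, minus strand) encodes the microsomal synthase that is induced together with cyclooxygenase-2 in inflammation. It stood at 156.06, 157.85 and 146.82 TPM in the control group and at 184.91, 182.88 and 192.45 TPM in the rutaecarpine group, and the groups did not overlap. The means were 154 ± 5.92 and 187 ± 5.04 TPM (SD, n = 3 each), and the log2 fold change was 0.28 (95% interval 0.11 to 0.45, limma adjusted p = 0.0585). PTGES passed in 2 of 13 alternatives, at 0.25 without control replicate 3 (limma adjusted p = 0.0288) and at 0.25 with library weights (limma adjusted p = 0.00658). The others, in which it did not pass, included 0.19 with libraries centred on their medians (limma adjusted p = 0.432).

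PTGES2 (ENSG00000148334, chr9:128120693-128128462, minus strand), the second microsomal synthase, stood at 43.14, 42.29 and 49.77 TPM in the control group and at 39.29, 46.93 and 47.16 TPM in the rutaecarpine group. The groups overlapped, and the 95% interval of its log2 fold change was -0.30 to 0.26 around -0.02 (limma adjusted p = 0.931), with a sign that turned in some alternatives. PTGES3 (ENSG00000110958, chr12:56663341-56688408, minus strand), which is both the cytosolic synthase and the Hsp90 co-chaperone p23, stood at 153.13, 154.5 and 131.65 TPM in the control group and at 139.43, 139.54 and 145.52 TPM in the rutaecarpine group. Here too the groups overlapped (log2 fold change -0.05, 95% interval -0.25 to 0.16, limma adjusted p = 0.782, and -0.12 without control replicate 3). The 5 PTGES3 pseudogenes listed, which could share its reads, summed to 0.84 to 0.95 TPM in the control group and 1.13 to 1.44 TPM in the rutaecarpine group.

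Between the 3 synthases, PTGES took 44.3%, 44.5% and 44.7% of the summed TPM in the control group and 50.9%, 49.5% and 50.0% in the rutaecarpine group. The difference of 5.60 percentage points had the same smallest possible p of 0.1 in the exact permutation test. PTGIS (ENSG00000124212, chr20:49503874-49568146, minus strand), the prostacyclin synthase, was at most 0.03 TPM in any library. HPGD (ENSG00000164120, chr4:174490177-174523154, minus strand), which starts the breakdown of prostaglandin E2, stood at 0.43, 1.23 and 0.44 TPM in the control group and at 0.45, 0.23 and 0.32 TPM in the rutaecarpine group. Both were under the filter on low TPM, and without that filter HPGD had a log2 fold change of -0.32 (limma adjusted p = 0.553).

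**Figure D3:**
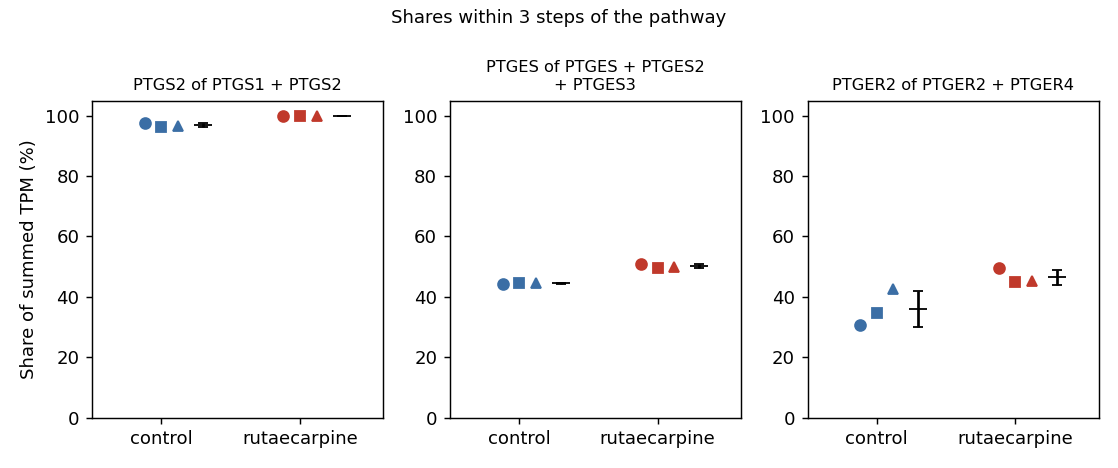
Share in percent of the summed TPM in each library for PTGS2 of both cyclooxygenases, PTGES of the 3 prostaglandin E synthases, and PTGER2 of PTGER2 and PTGER4, with a coloured symbol for each library and black marks for the mean ± SD of each group. In each panel the 3 rutaecarpine libraries lie above the 3 control libraries.

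Both receptors were expressed at a few TPM, under the prostaglandin E synthases and PTGS2. PTGER2 (ENSG00000125384, chr14:52314305-52328606, plus strand), which encodes EP2, stood at 3.84, 4.8 and 3.58 TPM in the control group and at 4.32, 4.11 and 4.29 TPM in the rutaecarpine group. The groups overlapped, and the log2 fold change was 0.05 (95% interval -0.34 to 0.44, limma adjusted p = 0.864), with a sign that turned when libraries were centred, weighted or control replicate 3 was left out. PTGER4 (ENSG00000171522, chr5:40679498-40693735, plus strand), which encodes EP4, stood at 8.61, 9.01 and 4.83 TPM in the control group and at 4.42, 5.02 and 5.21 TPM in the rutaecarpine group. Control replicate 3 lay within the rutaecarpine range and the other 2 controls lay above it.

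For PTGER4 the log2 fold change was -0.49 (95% interval -1.05 to 0.07, limma adjusted p = 0.265), and without control replicate 3 it was -0.74 (limma adjusted p = 0.0116). TTC33 spans PTGER4 on the opposite strand and was itself low in control replicate 3, at 2.59 TPM against 9.12 and 8.62 TPM in the other controls. In the rutaecarpine group TTC33 stood at 7.84, 6.61 and 11.99 TPM. Its part in the PTGER4 values was not tested. PTGER2 made up 30.8%, 34.8% and 42.6% of the summed TPM of both receptors in the control group and 49.4%, 45.0% and 45.2% in the rutaecarpine group (difference 10.5 percentage points, exact permutation p = 0.1).

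**Figure D4:**
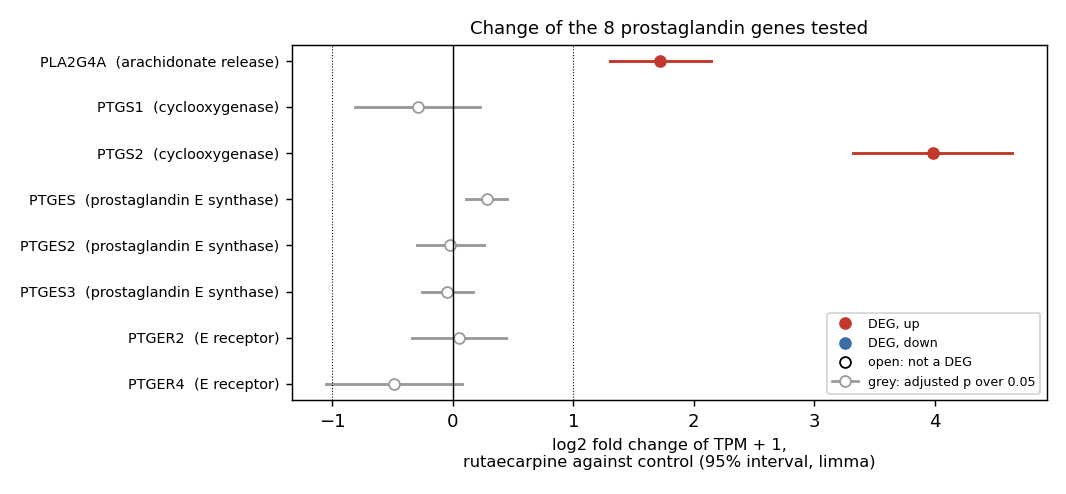
Log2 fold change of TPM + 1, rutaecarpine against control, for the 8 prostaglandin genes tested, with 95% intervals from limma, DEGs filled and genes with an adjusted p over 0.05 in grey. The intervals of PTGS2, PLA2G4A and PTGES lie above 0 and those of the other 5 include 0.

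By mean level in the control group the order was PTGES (154 TPM), PTGES3 (146 TPM), PTGS2 (52.0 TPM), PTGES2 (45.1 TPM), PTGER4 (7.48 TPM), PLA2G4A (4.87 TPM), PTGER2 (4.07 TPM) and PTGS1 (1.67 TPM). The library ranges of PTGES and PTGES3, of PTGS2 and PTGES2, of PTGER4 and PLA2G4A, and of PLA2G4A and PTGER2 overlapped. In the rutaecarpine group PTGS2 was first (803 TPM), ahead of PTGES (187 TPM), PTGES3 (141 TPM), PTGES2 (44.5 TPM) and PLA2G4A (18.3 TPM), and the ranges of these 5 did not overlap.

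The 5 genes whose levels followed PTGS2 most closely over the 6 libraries were LIF (Pearson r = 0.9996), PGAP4 (0.9990), STC2 (0.9990), SNX9 (0.9987) and GREM1 (0.9986). Among the prostaglandin genes PTGES followed at 0.993 and PLA2G4A at 0.990, and PTGER2 (0.353), PTGES3 (-0.112), PTGES2 (-0.190), PTGS1 (-0.460) and PTGER4 (-0.558) did not. These values describe 6 libraries in 2 separate groups, so that they mostly restate the difference between the groups. LIF, which encodes a cytokine of the interleukin-6 family, stood at 135.54, 124.36 and 73.81 TPM in the control group and at 893.85, 752.49 and 1021.32 TPM in the rutaecarpine group.

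The rest of the route was read from 45 other prostanoid and eicosanoid genes, of which 30 were tested. Of these, 1 was a DEG with higher and 2 with lower expression, against 2.01% and 1.50% of all tested genes. At an adjusted p of at most 0.05, 2 of the 30 rose and 5 fell, against 4.60% and 4.68% of all tested genes. Without control replicate 3 the counts were 2 and 10, against 8.36% and 10.3%. The median log2 fold change of the 30 was -0.20, against 0.08 for all tested genes. The 15 others were at most 1.78 TPM.

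Both listed inhibitors of phospholipase A2 were lower at an adjusted p of at most 0.05, as were 4.68% of all tested genes. Of these inhibitors only S100A10 was a DEG. S100A10, the annexin A2 partner that binds and restrains cytosolic phospholipase A2, stood at 2420.17, 2330.28 and 2769.43 TPM in the control group and at 1204.93, 1262.68 and 1098.48 TPM in the rutaecarpine group (log2 fold change -1.07, SE 0.10, limma adjusted p = 0.00122). ANXA1, annexin A1, went from 831 ± 23.8 to 535 ± 16.1 TPM (SD, n = 3 each; log2 fold change -0.63, limma adjusted p = 0.00212). Both passed in 13 of 13 alternatives. PLA2G6, a calcium-independent phospholipase, stood at 8.38, 9.98 and 7.9 TPM in the control group and at 18.7, 15.41 and 23.05 TPM in the rutaecarpine group (log2 fold change 1.03, limma adjusted p = 0.0153). It was a DEG in 7 of 13 alternatives, its log2 fold change lying near the threshold at 0.89 to 1.16 (0.965 without control replicate 3), and it missed an adjusted p of 0.05 without control replicate 1 (0.0587), without rutaecarpine replicate 1 (0.0753) and without rutaecarpine replicate 3 (0.0738).

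Of the 9 other prostanoid synthases and reductases tested, 0 rose and 2 fell at an adjusted p of at most 0.05, against 4.60% and 4.68% of all tested genes. PTGDS, the prostaglandin D synthase, stood at 28.09, 30.87 and 32.54 TPM in the control group and at 12.24, 12.69 and 11.47 TPM in the rutaecarpine group, a log2 fold change of -1.26 (SE 0.12, limma adjusted p = 0.00137). AKR1C3, a prostaglandin F synthase, fell by 0.78 on the log2 scale (limma adjusted p = 0.0176), with reads that near-identical AKR1C genes could share, and passed in 8 of 13 alternatives. It missed an adjusted p of 0.05 without control replicate 1 (0.0654) and without each rutaecarpine replicate (0.0766 to 0.0809). AKR1B1, which also has this activity, was the most abundant, at 3326.02 to 6324.97 TPM, and did not pass (limma adjusted p = 0.0695), although it did without control replicate 3 (0.0203). FADS2, which starts the desaturation that leads to arachidonic acid, fell by 0.82 on the log2 scale (limma adjusted p = 0.00618).

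PTGFRN, a partner of the prostaglandin F receptor, rose from 149 ± 4.77 to 251 ± 10.7 TPM (SD, n = 3 each; log2 fold change 0.76, limma adjusted p = 0.00155). The other E receptors were almost absent, with PTGER1 at most 0.49 TPM and PTGER3 at most 0.24 TPM. SLCO2A1, the prostaglandin uptake carrier, was at 0 in every library.

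**Figure D5:**
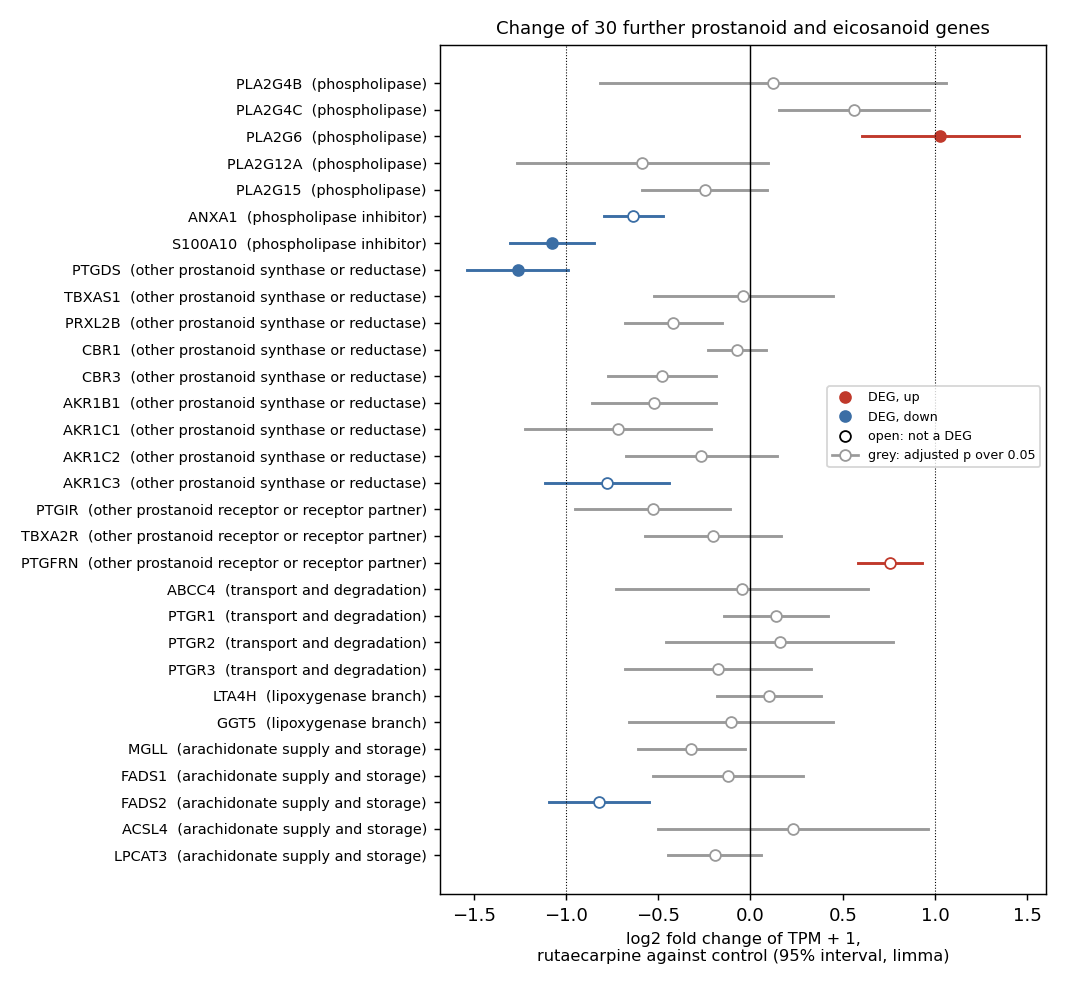
Log2 fold change of TPM + 1, rutaecarpine against control, for the 30 other prostanoid and eicosanoid genes tested, grouped by role, with 95% intervals from limma, DEGs filled and genes with an adjusted p over 0.05 in grey. S100A10 and PTGDS lie below -1, PLA2G6 lies above 1, and the other fold changes lie between -1 and 1.

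Downstream of EP2 and EP4, 29 of 33 cyclic AMP pathway genes were tested and 0 were DEGs, against 3.51% of all tested genes. At an unadjusted p under 0.05, 2 of the 29 were higher and 5 lower, against 13.4% and 11.0% of all tested genes. At an adjusted p of at most 0.05, 0 rose and 1 fell, against 4.60% and 4.68%, and without control replicate 3 the counts were 1 and 6, against 8.36% and 10.3%. The gene that fell was RAPGEF3, the cyclic AMP-activated exchange factor EPAC1. It stood at 15.36, 15.76 and 14.44 TPM in the control group and at 9.39, 8.28 and 9.56 TPM in the rutaecarpine group (log2 fold change -0.69, SE 0.13, limma adjusted p = 0.0199), and it passed in 7 of 13 alternatives. It missed an adjusted p of 0.05 when control replicate 1 or 2 or any rutaecarpine replicate was left out (0.0830 to 0.0885). GNAS, the stimulatory G protein subunit to which both receptors couple, stood at 1245.54, 1276.67 and 1298.04 TPM in the control group and at 1105.79, 1084.87 and 1088.8 TPM in the rutaecarpine group, a log2 fold change of -0.22 (limma adjusted p = 0.0863), and passed without control replicate 3 (0.0374). AKAP12, a scaffold for protein kinase A, had 35.35, 37.31 and 11.89 TPM in the control group and 58, 47.13 and 57.87 TPM in the rutaecarpine group. Its log2 fold change was 1.07 (95% interval 0.13 to 2.02, limma adjusted p = 0.159), and 0.56 without control replicate 3 (limma adjusted p = 0.0124).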

How the data were processed

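RNA-seq was made from U87 cells, 3 control and 3 rutaecarpine libraries. The deposited values are TPM per gene, which the authors estimated with RSEM against GRCh38.p13, per the labels' processing notes, which also name DESeq2 and edgeR. The aligner, the versions and the strand setting are not given in the sources used here. Depth is unknown, since TPM keep no read counts, and no counting interval is given.

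Genes at or above 1 TPM in 3 or more libraries were tested on log2(TPM + 1), which understates the change of low genes, with limma 3.58.1 in R 4.3.3 (empirical Bayes with trend, two-sided, Benjamini-Hochberg over 14377 genes). The DEG limits were an adjusted p of 0.05 and a log2 fold change of 1 in size. Shares used an exact two-sided permutation test. The fit was also run on 5 simulated sets with 200 changed genes. In these sets a gene had the same spread in every library, and only genes of higher level were changed. They therefore cannot show how the fit handles control replicate 3 or low genes. Gene positions are from GENCODE on GRCh38, and promoters from RefSeq on GRCh38.p14.

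The genes followed and the gene lists were chosen with earlier results of these data known. Named beside the 10 genes were DEGs of the lists, the most abundant gene of each role, the 5 genes most like PTGS2, and CYP1B1. Genes were also named where they passed an adjusted p of 0.05 or lay near PTGS2, after their values were seen. Some further genes met none of these rules and were named with their values known. Among them were PTGER1, PTGER3, PTGFR, PTGIR, PTGDR, SLCO2A1, HPGDS, ALOX15 and TTC33. In all, 13 alternatives were tried.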

Additional observations from a re-analysis of the deposited data

How the results depend on the processing

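PTGS2 and PLA2G4A were DEGs in 13 of 13 alternatives. With library weights, in which control replicate 3 had a weight of 0.121, the log2 fold changes were 0.25 for PTGES and -0.75 for PTGER4, both past an adjusted p of 0.05, and 0.0015 for PTGES2, -0.0241 for PTGER2, -0.0294 for ADCY6 and -0.0495 for ACSL4, which turned sign. With libraries centred on their medians PTGER2 was at -0.0391 and CREM at -0.0178. Leaving out 1 library gave ranges of 0.25 to 0.30 for PTGES, -0.0644 to 0.0643 for PTGES2, -0.0162 to 0.15 for PTGER2, -0.74 to -0.35 for PTGER4, -0.11 to 0.23 for ADCY6, -0.0851 to 0.23 for PDE8A, -0.0200 to 0.16 for CREM and -0.15 to 0.43 for ACSL4. The single higher DEG of the 45 pathway genes, PLA2G6, was at 0 DEGs with centring and with the block, and at 0 to 1 when 1 library was left out. Over all tested genes, 289 higher and 216 lower DEGs became 251 and 295 with centring and 164 and 156 without rutaecarpine replicate 3. At an adjusted p of 0.05, 662 higher and 673 lower genes became 1935 and 2027 with weights, 1186 and 1466 without control replicate 3, and 242 and 258 without rutaecarpine replicate 3.

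Between libraries with the same replicate number, the correlations of deviations from the group means were 0.116, -0.266 and -0.215. With 3 libraries per group and control replicate 3 standing apart, these values cannot show whether the replicate numbers pair the libraries. With the replicate number as a block PTGS2 stayed at 3.98 and PLA2G4A at 1.72, 2 DEGs among the 8 genes, and PLA2G6 (adjusted p = 0.0944), AKR1C3 (0.0667) and RAPGEF3 (0.135) no longer passed in limma. Over all tested genes the block gave 193 higher and 125 lower DEGs, and 236 and 192 genes passed an adjusted p of 0.05. The cause of these changes was not tested. TPM carry no depth, so low genes such as HPGD, PTGIS and PTGS1 are limited in a way that these values cannot show.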

Other observations

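The lipoxygenase branch, which turns arachidonic acid into leukotrienes, was described by its own genes. LTA4H, the leukotriene A4 hydrolase, was its most abundant gene and had a log2 fold change of 0.10 (limma adjusted p = 0.642). ALOX15 was at 0 in every library, as were HPGDS, the haematopoietic prostaglandin D synthase, and PTGDR, a prostaglandin D receptor. ACSL4, which loads arachidonic acid onto coenzyme A, stood at 196.33, 191.7 and 86.96 TPM in the control group and at 189.17, 148 and 189.48 TPM in the rutaecarpine group, with control replicate 3 the lowest library. Its log2 fold change was 0.23 (limma adjusted p = 0.680) and -0.15 without that library.

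PTGFR, the prostaglandin F receptor, was under the filter on low TPM and was not tested. It stood at 1.78, 1.15 and 0.52 TPM in the control group and at 0.33, 0.41 and 0.19 TPM in the rutaecarpine group, so that the groups did not overlap. PTGIR, the prostacyclin receptor, stood at 2.02, 2.11 and 2.07 TPM in the control group. In the rutaecarpine group it stood at 0.99, 0.91 and 1.52 TPM, and reached 1 TPM in only 1 library there. PTGIR was tested and did not pass (log2 fold change -0.53, limma adjusted p = 0.125). The regulatory subunit PRKAR1A of protein kinase A had a log2 fold change of 0.52 (limma adjusted p = 0.437) and of 0.04 without control replicate 3, with control replicate 3 at 75.92 TPM against 212.02 and 206.4 TPM in the other controls. PLA2G15, PTGR1, PKIG, PDE8A, ADCY6 and CREM, the most abundant genes of their roles, had log2 fold changes of -0.25, 0.14, -0.12, 0.10, 0.10 and 0.08 and did not pass the test.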
